A study of Rattus norvegicus with 18 samples.

Results

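NF-kB is a family of transcription factors assembled from subunits, and among the genes it switches on are its own brakes. The members described here are 10 genes of that loop, chosen by name as subunits and feedback inhibitors with earlier results of these data known. Shares of all genes given beside them are therefore descriptive. Nfkb1, Nfkb2, Rela and Relb encode subunits, and Nfkbia, Nfkbiz and Bcl3 encode inhibitor-type proteins that bind them. Tnfaip3, Zfp36 and Birc3 encode further regulators. The arrays hold 41012 probes, and 13 of them belonged to 8 of the 10 genes. Tnfaip3 and Relb had no probe under this rule, and nothing is reported on their levels. All 8 genes with a probe passed the brightness filter, as did 12 of the 13 probes, out of 28634 probes and 13168 named genes tested in all. Bcl3 rests on 1 probe that the files call LOC680611, a name that carries the gene ID RefSeq lists for Bcl3. That naming has no other check here.

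RNA came from the brain cortex of male Crl:CD(SD)BR rats of 250 to 280 g, and each of the 18 samples was labelled with Cy3 and put on 1 array. At 6 h and again at 2 h there were 3 groups of 3 samples: MCAO (occlusion of the middle cerebral artery, which makes the tissue ischemic) with erythropoietin (EPO), MCAO with saline, and sham-operated rats labelled with no treatment. EPO is the hormone best known for driving red cell production. Age, EPO dose and the time of dosing are not given in the sources used here, and the labels do not say that every sample is a separate animal, so the p-values measure the spread between these samples. The sham rats had no saline by the labels, so MCAO and saline are set against sham together.

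In resting cells the subunits are held in the cytoplasm by IkB proteins, of which the product of Nfkbia is the best studied. Receptors for TNF, IL-1 and bacterial products activate kinases that mark IkB for destruction, and freed dimers such as those holding the Rela product enter the nucleus. In ischemic brain the pathway is known for inducing adhesion molecules, chemokines and cytokines in vessels, glia and neurons.

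As background, NF-kB dimers bind kappa B sites, so 5 promoters are shown to place the letters of such sites: Nfkbia, Nfkb2 and Bcl3, whose windows hold the consensus, and Zfp36 and Rela, whose windows do not. They are RefSeq windows on GRCr8 from 250 bases before to 50 bases after the annotated start, read 5′ to 3′ on the gene's own strand, and capitals mark matches to the kappa B consensus searched on both strands.
Nfkbia, chr6:78597023-78597322, minus strand: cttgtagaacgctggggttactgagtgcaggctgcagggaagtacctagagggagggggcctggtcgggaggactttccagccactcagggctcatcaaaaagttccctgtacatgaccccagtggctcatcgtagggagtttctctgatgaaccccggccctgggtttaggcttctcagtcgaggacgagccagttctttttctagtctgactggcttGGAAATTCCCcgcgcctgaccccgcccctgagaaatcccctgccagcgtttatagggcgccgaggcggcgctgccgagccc
Nfkb2, chr1:255108124-255108423, plus strand: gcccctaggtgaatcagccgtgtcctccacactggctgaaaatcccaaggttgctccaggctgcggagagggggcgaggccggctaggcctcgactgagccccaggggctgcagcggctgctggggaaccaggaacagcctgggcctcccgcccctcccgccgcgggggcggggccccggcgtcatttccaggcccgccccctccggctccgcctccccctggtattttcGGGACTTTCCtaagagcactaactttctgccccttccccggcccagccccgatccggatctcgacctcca
Bcl3, chr1:88613506-88613805, minus strand: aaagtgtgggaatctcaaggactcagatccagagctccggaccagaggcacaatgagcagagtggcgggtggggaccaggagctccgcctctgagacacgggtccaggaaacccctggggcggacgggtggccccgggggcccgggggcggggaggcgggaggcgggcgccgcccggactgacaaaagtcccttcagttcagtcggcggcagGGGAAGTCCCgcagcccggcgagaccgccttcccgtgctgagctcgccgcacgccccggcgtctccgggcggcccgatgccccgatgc
Zfp36, chr1:92799059-92799358, minus strand: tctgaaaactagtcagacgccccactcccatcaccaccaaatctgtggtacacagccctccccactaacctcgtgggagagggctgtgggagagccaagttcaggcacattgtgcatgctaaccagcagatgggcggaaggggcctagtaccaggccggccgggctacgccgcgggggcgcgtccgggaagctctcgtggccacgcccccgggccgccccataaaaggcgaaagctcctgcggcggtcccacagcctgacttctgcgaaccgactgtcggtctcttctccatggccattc
Rela, chr1:212354086-212354385, plus strand: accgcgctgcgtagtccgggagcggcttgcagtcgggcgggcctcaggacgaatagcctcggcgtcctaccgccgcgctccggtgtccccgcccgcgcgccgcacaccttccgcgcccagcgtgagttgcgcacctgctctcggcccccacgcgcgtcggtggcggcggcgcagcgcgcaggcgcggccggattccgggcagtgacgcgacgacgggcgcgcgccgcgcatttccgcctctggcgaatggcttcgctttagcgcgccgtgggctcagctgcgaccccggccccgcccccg

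A match was present in 6 of the 8 members that have a window in the table, namely Nfkbia, Nfkbiz, Tnfaip3, Nfkb1, Nfkb2 and Bcl3, against 7.51% of 33469 rat promoters of the same length. It read GGAAATTCCC at 31 bases before the start of Nfkbia, GGGACTTTCC at 20 bases before that of Nfkb2 and GGGAAGTCCC at 38 bases before that of Bcl3. Nfkbiz and Nfkb1 shared the letters GGGAATTTCC, which lay 13 bases before the start in Nfkbiz and 3 bases after it in Nfkb1. Read on the opposite strand, the Nfkbia match has the same letters as that of Nfkbiz and Nfkb1. Tnfaip3, the gene with no probe, was the only member with several matches, at 170, 67 and 55 bases before its start. A looser pattern (3 G, any 5 bases, then 2 C, on both strands), which can overlap the consensus, was present in all 8 windows, Zfp36 and Rela included, against 47.3% of all promoters. These are matches of letters and not measured binding.

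Values below are log2 levels: the log2 of the processed probe signal minus the 75th percentile of its own array, so that 0 is a spot at that percentile. They compare the same probe between samples, and levels of different genes cannot be ranked from them. Between 61.5% and 80.6% of probes were well above background per array. On 6 arrays the signal rose more steeply with the known amounts of spiked-in control RNA, with slopes of 0.914 to 0.941 against 0.788 to 0.866 on the other 12. The steep arrays were EPO 6 h replicate 3, saline 6 h replicates 1 and 3, sham 6 h replicate 1, EPO 2 h replicate 1 and saline 2 h replicate 1, and the main results are given with and without them. The 4 arrays of slide 5, which hold 3 of the 6 h arrays and EPO 2 h replicate 1, were scanned on a later day than the other 14 and are all steep, so for them the scan day and the slope cannot be told apart. All 6 neuronal and all 6 astrocytic markers were well above background on every array, as a cortex label calls for. In bulk tissue, fewer cells of a type and less RNA per cell cannot be told apart.

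At 6 h, all 8 measured members were higher after MCAO with saline than after sham surgery, with log2 differences of 0.33 to 2.15 for the 7 members measured on both sides. Zfp36, at background in sham, passed the brightness filter through the MCAO groups alone and has only a bound, given with it below. The median of the 8 with Zfp36 at its bound was 1.06, against -0.09 over all genes. Each passed an adjusted p of 0.05 (limma, 1 model over 6 groups, Benjamini-Hochberg over all probes), where 6.14% of all genes were called higher and 6.71% lower. No member's saline and sham values overlapped. Of all 13168 genes tested, 13.1% were higher with saline without overlap. After MCAO with EPO all 8 were again higher than sham, by 0.51 to 2.47 for the 7 measured on both sides, with a median of 1.16 with Zfp36 at its bound. In that comparison 8.15% of genes were called higher and 10.7% lower, and 13.7% were higher with no overlap, as all 8 members were. The EPO and saline comparisons share their sham arrays. At 2 h, only Zfp36 was called, after saline and after EPO, with 1.22% of genes called higher and 0.349% lower for saline, and 1.38% and 0.372% for EPO.

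**Figure D1:**
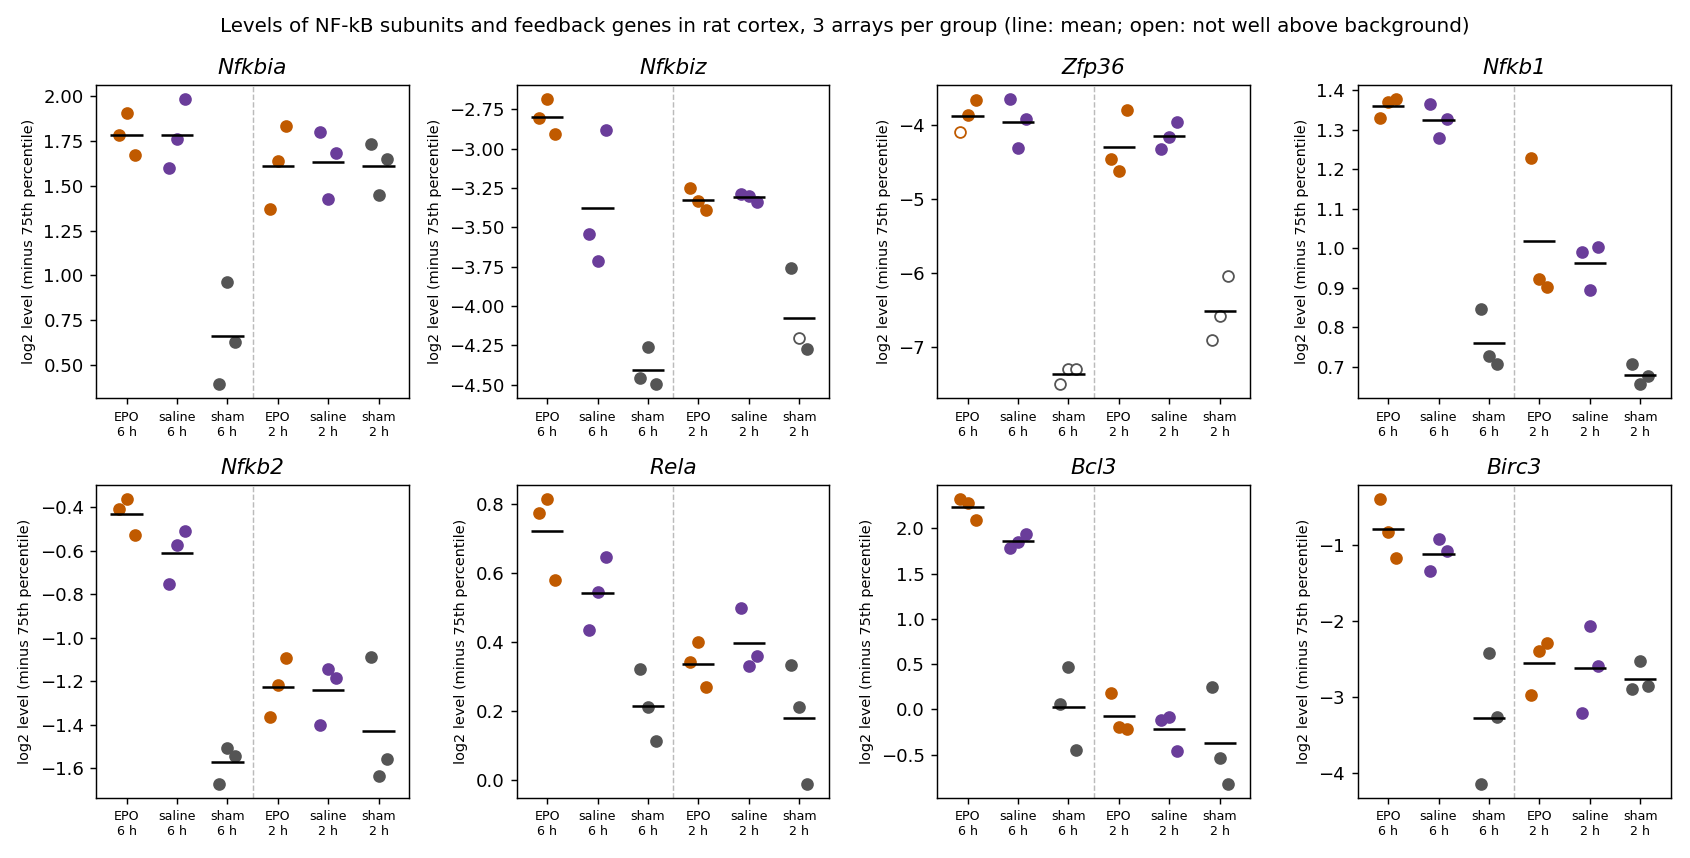
Log2 level (processed signal minus the array's 75th percentile) of the 8 measured members on all 18 arrays, with the 6 h groups left and the 2 h groups right of the dashed line. Points are arrays, lines are means of 3, and open points were not well above background: in each panel the 6 h EPO and saline arrays lie above the 6 h sham arrays, while Nfkbia at 2 h is as high in sham as after MCAO.

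Nfkbia encodes IkB-alpha, which captures active dimers and carries them out of the nucleus. At 6 h its log2 levels were 1.78, 1.91 and 1.67 after MCAO with EPO, 1.60, 1.76 and 1.98 with saline, and 0.40, 0.97 and 0.63 in sham cortex. At 2 h they were 1.37, 1.64 and 1.83 with EPO, 1.80, 1.42 and 1.68 with saline, and 1.74, 1.45 and 1.65 in sham. The 6 h sham arrays were the lowest of all and overlapped no other group, whereas the other 5 groups overlapped one another. Saline over sham was therefore 2.17-fold at 6 h (log2 1.12 ± 0.16 SE, adjusted p = 0.000718) and 1.02-fold at 2 h (log2 0.02 ± 0.16 SE, adjusted p = 0.955).

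The sham groups themselves differed for this gene. Nfkbia was lower in sham at 6 h than in sham at 2 h by a log2 difference of -0.95 ± 0.16 SE (limma adjusted p = 0.0224), the only member called in that comparison, in which 0.623% of genes were called in either direction. The other members were not called: Bcl3 differed by 0.40, Nfkb1 by 0.08, Rela by 0.04, Nfkb2 by -0.15, Nfkbiz by -0.33 and Birc3 by -0.51, and Zfp36 was at background in both sham groups. The change in the MCAO effect between the times, 6 h minus 2 h, was 1.09 ± 0.23 SE on the log2 scale (limma adjusted p = 0.0324), and saline levels at 6 h averaged 1.78 against 1.63 at 2 h. On the 1 slide that held sham arrays of both times, the sham difference was -1.02. It was -0.81 without the steep arrays, with an adjusted p of 0.177. A further Nfkbia probe gave 0.80 ± 0.26 SE for saline over sham at 6 h (adjusted p = 0.0619), 0.97 for EPO over sham (adjusted p = 0.02) and -0.66 for sham at 6 h over 2 h (adjusted p = 0.423).

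Zfp36 encodes tristetraprolin, which binds AU-rich elements of cytokine mRNAs and speeds their decay. Its levels at 6 h were -4.09, -3.86 and -3.65 after MCAO with EPO, -3.65, -4.31 and -3.91 with saline, and -7.50, -7.30 and -7.30 in sham. The 2 h levels were -4.46, -4.62 and -3.80 with EPO, -4.31, -4.16 and -3.96 with saline, and -6.91, -6.59 and -6.04 in sham. All 12 MCAO arrays lay above all 6 sham arrays. No sham array was well above background, so the probe passed the brightness filter through the MCAO groups alone. Only bounds can be given, taking the dimmest probe well above background on each sham array as its floor. Saline was at least 2.15-fold and EPO at least 2.28-fold higher at 6 h. At 2 h saline was at least 1.34-fold and EPO at least 1.21-fold higher. The limma adjusted p-values test differences from the background-level sham signal and not these bounds. They were 2.91e-06 for saline and 1.55e-06 for EPO at 6 h, and 0.000141 and 0.000256 at 2 h. Of the 3 EPO arrays at 6 h, 2 were well above background. Each 2 h call held in 36 of 38 alternatives, with log2 differences as low as 0.38 for saline and 0.36 for EPO. Both 2 h calls held without the steep arrays (limma adjusted p = 0.0283 for EPO and 0.0205 for saline).

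Nfkbiz encodes IkB-zeta, an inducible nuclear IkB that acts on a subset of secondary NF-kB targets. On the probe of highest mean signal, at 6 h the levels were -2.81, -2.69 and -2.91 with EPO, -3.54, -3.71 and -2.88 with saline, and -4.46, -4.26 and -4.49 in sham. At 2 h, EPO arrays gave -3.25, -3.33 and -3.39, saline arrays -3.29, -3.30 and -3.34, and sham arrays -3.76, -4.20 and -4.27. MCAO arrays lay above sham arrays at both times. The 6 h difference was 1.03 ± 0.18 SE for saline and 1.60 ± 0.18 SE for EPO (limma adjusted p = 0.00267 and 6.16e-05), and at 2 h it was 0.77 and 0.75 with adjusted p of 0.0591 and 0.063, just short of the call. These values are those of 1 of 2 Nfkbiz probes. Averaging both lost the 6 h calls, at 0.17 for saline (adjusted p = 0.856) and 1.14 for EPO (adjusted p = 0.171), and turned the 2 h values to -0.34 for saline and -0.43 for EPO.

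Bcl3 encodes a nuclear IkB-like protein that works as a partner of p50 and p52 dimers. Its 6 h levels were 2.32, 2.28 and 2.09 with EPO, 1.78, 1.85 and 1.93 with saline, and 0.06, 0.47 and -0.45 in sham. Its 2 h levels were 0.19, -0.20 and -0.22 with EPO, -0.11, -0.08 and -0.46 with saline, and 0.25, -0.53 and -0.82 in sham, so the 2 h groups overlapped one another. The saline over sham difference was 1.82 ± 0.25 SE at 6 h (3.54-fold, limma adjusted p = 0.000568) and 0.15 ± 0.25 SE at 2 h. The EPO over sham difference at 6 h was 2.20 ± 0.25 SE (4.60-fold). The MCAO effect at 6 h minus that at 2 h was 1.68 ± 0.36 SE (limma adjusted p = 0.0374).

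Birc3 encodes cIAP2, a ubiquitin ligase of the TNF receptor complex that is also an NF-kB target. At 6 h it stood at -0.39, -0.82 and -1.17 with EPO, -1.35, -0.92 and -1.08 with saline, and -4.13, -2.41 and -3.26 in sham. At 2 h it stood at -2.96, -2.39 and -2.29 with EPO, -3.20, -2.06 and -2.59 with saline, and -2.89, -2.52 and -2.85 in sham. The sham arrays at 6 h spanned more than those of any other group, yet all lay below the 6 h MCAO arrays. Saline over sham was 2.15 ± 0.38 SE at 6 h (limma adjusted p = 0.003), and 0.14 ± 0.38 SE at 2 h. Its 6 h minus 2 h difference of 2.01 ± 0.54 SE had the largest size of the members and an adjusted p of 0.0937.

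Among the subunits, Nfkb1 encodes the p105 precursor of p50. Its levels at 6 h were 1.33, 1.37 and 1.38 with EPO, 1.36, 1.28 and 1.33 with saline, and 0.85, 0.73 and 0.71 in sham. The 2 h levels were 1.23, 0.92 and 0.90 with EPO, 0.99, 0.89 and 1.00 with saline, and 0.71, 0.66 and 0.68 in sham. The changes were small against a small spread: saline over sham was 0.56 ± 0.08 SE at 6 h (1.48-fold, limma adjusted p = 0.00047). At 2 h it was 0.28 ± 0.08 SE (adjusted p = 0.112), with groups that did not overlap, and EPO over sham was 0.34 (limma adjusted p = 0.0503). A further Nfkb1 probe moved with it (Pearson r = 0.94 over 18 arrays) and gave 0.50 at 6 h (adjusted p = 0.00402).

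Nfkb2 encodes p100, which is both an inhibitor and the precursor of p52 in the non-canonical branch. At 6 h the levels were -0.41, -0.36 and -0.53 with EPO, -0.75, -0.57 and -0.51 with saline, and -1.67, -1.50 and -1.54 in sham. At 2 h the 3 groups overlapped, with -1.36, -1.22 and -1.09 for EPO, -1.40, -1.14 and -1.18 for saline, and -1.09, -1.63 and -1.56 for sham. Saline over sham was 0.96 ± 0.13 SE at 6 h (1.94-fold, limma adjusted p = 0.000455) and 0.18 ± 0.13 SE at 2 h (adjusted p = 0.614). The difference between these effects was 0.77 ± 0.18 SE, with an adjusted p of 0.0587.

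Rela encodes p65, the subunit that carries the main activation domain, and its differences were the smallest of the members at 6 h. Its levels were 0.77, 0.81 and 0.58 with EPO, 0.43, 0.55 and 0.65 with saline and 0.32, 0.21 and 0.11 in sham at 6 h. At 2 h they were 0.34, 0.40 and 0.27 with EPO, 0.50, 0.33 and 0.36 with saline, and 0.33, 0.21 and -0.01 in sham. At 6 h the EPO over sham difference was 0.51 ± 0.10 SE (1.42-fold, limma adjusted p = 0.00312) and the saline over sham difference 0.33 ± 0.10 SE (1.25-fold, adjusted p = 0.0456). The saline call is fragile: it held in 5 of 18 fits that left out 1 array and in 8 of 21 other settings, and averaging the 2 Rela probes turned the value to -0.18 (adjusted p = 0.797). The EPO call held in all 18 fits that left out 1 array. Averaging the 2 probes lost that call too, at 0.36 (limma adjusted p = 0.678).

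**Figure D2:**
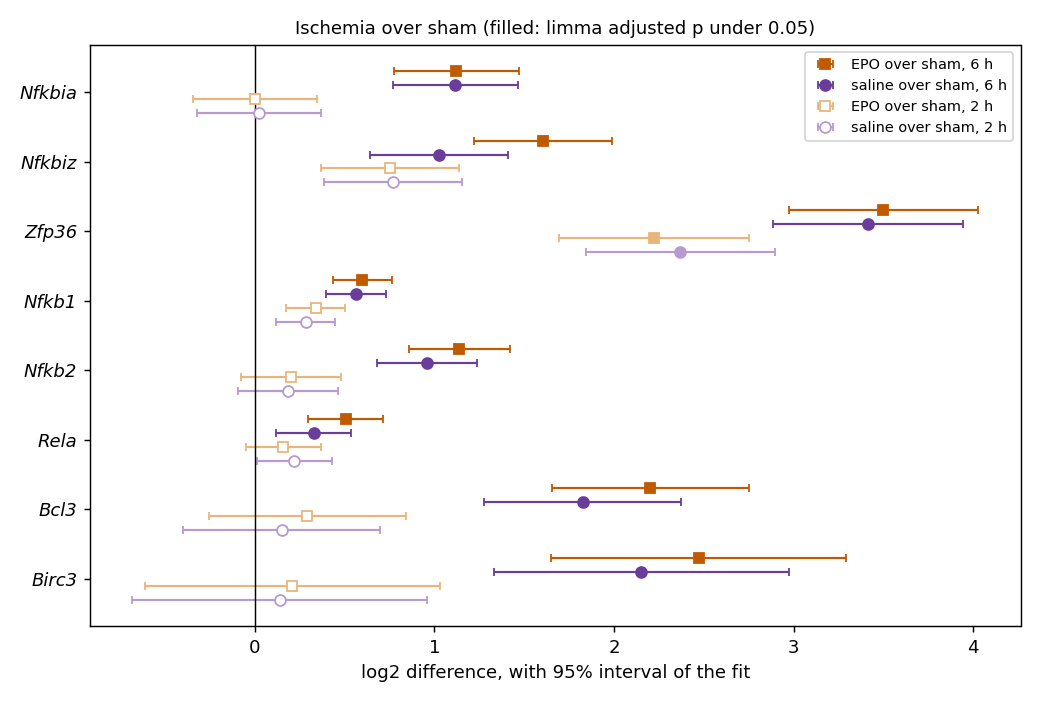
Log2 differences of MCAO with EPO over sham (squares) and MCAO with saline over sham (circles) for the 8 measured members, dark for 6 h and pale for 2 h, with 95% intervals of the fit. Filled markers have a limma adjusted p under 0.05: all 16 at 6 h and only Zfp36 at 2 h. The Zfp36 values are measured against a sham signal not well above background.

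Over the members, 2 of 8 differed in the MCAO effect between 6 h and 2 h (Nfkbia and Bcl3), where 1.93% of all genes did so in either direction. Zfp36 cannot be read here, as its sham levels were background at both times. The other 7 differences were positive, with 0.11 for Rela, 0.26 for Nfkbiz, 0.28 for Nfkb1 and the values given above for the rest, though Nfkbiz turned to -0.09 without the steep arrays. Groups spread over 5 slides, and 2 slides held saline and sham arrays of 6 h. As no member's saline and sham values overlapped at 6 h, every member had to be higher with saline on these slides. Within-slide log2 differences were 0.32 to 0.33 for Rela, 0.93 to 1.16 for Nfkb2, 0.80 to 1.59 for Nfkbia and 1.38 to 1.87 for Bcl3. Without the 6 steep arrays the saline over sham differences of the 7 members other than Zfp36 were 0.38 to 1.92, and only Zfp36 and Nfkb1 kept an adjusted p under 0.05 (0.0252 and 0.0427). That fit has 1 saline array at 6 h, assumed to vary like the other groups. For EPO over sham at 6 h, with 2 arrays left on each side, all 8 stayed called, at adjusted p of 0.00262 to 0.0216. At 2 h without the steep arrays none of these 7 was called. With the scan day as a block, 8 members were called for EPO over sham and 7 for saline over sham at 6 h.

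For 3 genes a further probe separated the steep arrays from the rest. That of Rela ranged from -5.48 to -4.83 on the 6 steep arrays and from -3.96 to -2.37 on the other 12, that of Nfkbiz from -5.83 to -4.93 against -3.66 to -1.61, and that of Nfkb2 from -6.96 to -5.57 against -5.53 to -4.28. The other 10 member probes overlapped between these arrays, among them the low-signal Zfp36 probe and the further Nfkbia probe. Over 18 arrays that share their scaling, the 2 probes of a gene had Pearson r = 0.94 for Nfkb1, 0.79 for Nfkbia, 0.33 for Nfkb2, -0.11 for Nfkbiz and -0.12 for Rela. For saline over sham at 6 h the further Rela probe gave -0.69 ± 0.76 SE and the further Nfkbiz probe -0.68 ± 1.03 SE, neither called. The further Nfkb2 probe was well above background on 4 of 18 arrays and was not tested.

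**Figure D3:**
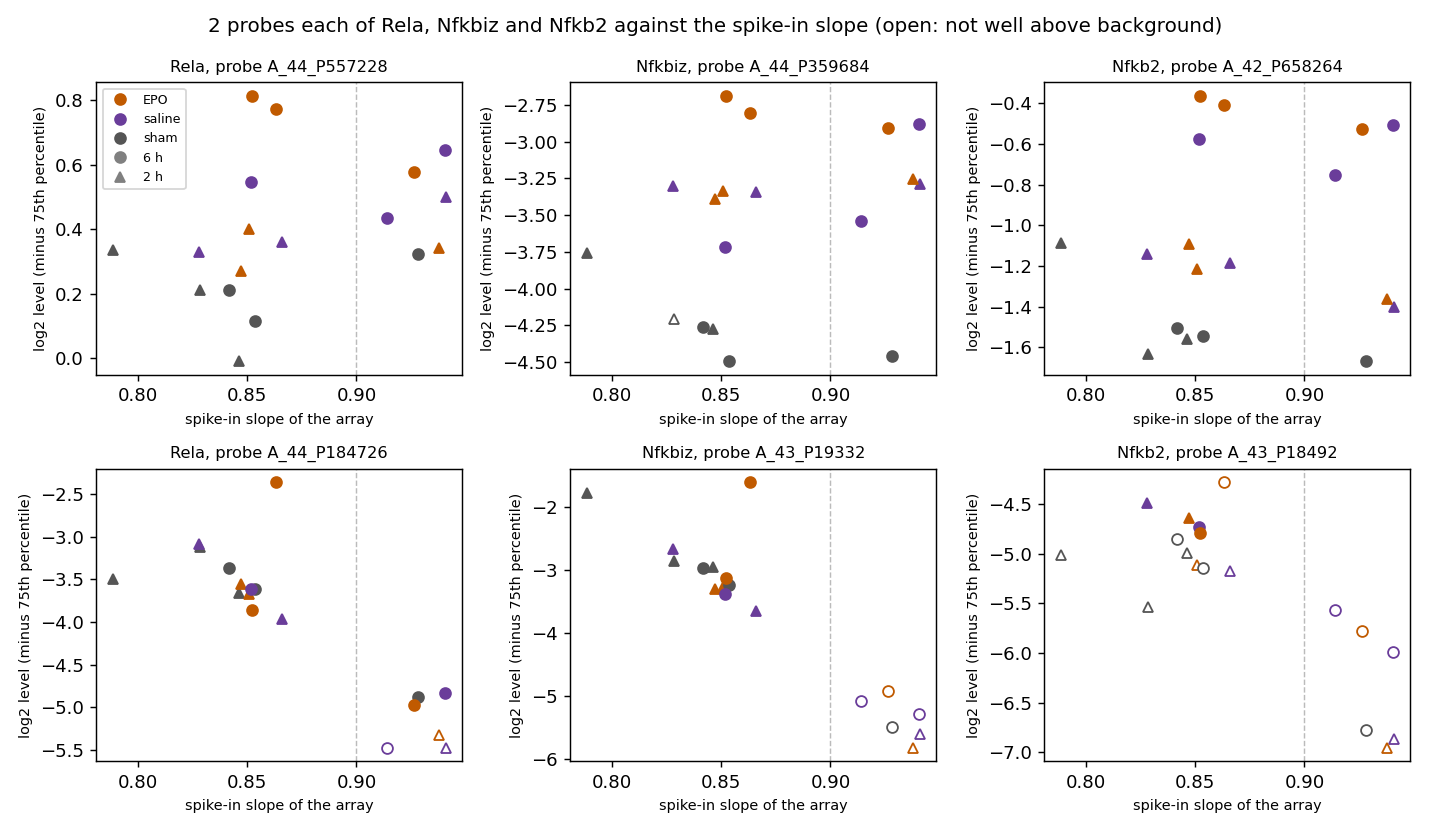
Log2 level of the probe used for the gene (top) and of its further probe (bottom) for Rela, Nfkbiz and Nfkb2 against the slope of signal on spiked-in RNA amount for each of 18 arrays; colours give the treatment, circles 6 h and triangles 2 h, and open points were not well above background. In the bottom row the 6 arrays right of the dashed line at 0.9 lie below the other 12.

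Set against saline, EPO left no member past the threshold at either time, and no gene on the arrays was called: 0% at 6 h and 0% at 2 h. At 6 h all 8 EPO over saline differences were positive, from 0.00 for Nfkbia to 0.58 for Nfkbiz, with a median of 0.18 where all genes had 0.03 and 57.5% of genes were positive. Scaled to the array median instead, 3 of the 8 were positive. Without the steep arrays all 8 were positive, up to 0.97 for Nfkbiz, with 1 saline array left and none called. Nfkbiz had the lowest raw p, 0.00628, with an adjusted p of 0.778 (limma) and a 95% interval of 0.19 to 0.96, and it was the only member with a raw p under 0.05. Its EPO and saline values overlapped because saline replicate 3, at -2.88, reached the EPO range.

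Of the 8 members 1, Bcl3, had EPO and saline values that did not overlap at 6 h, where 4.52% of genes were higher with EPO without overlap. Its difference was 0.38 ± 0.25 SE (limma adjusted p = 0.778), with a 95% interval of -0.17 to 0.93. Without overlap, Bcl3 had to be higher with EPO on each of the 3 slides that held both, and the differences there were 0.16 to 0.54. Each of the other 7 members was higher on 2 of the 3. Zfp36 differed by 0.09 (interval -0.44 to 0.61), Rela differed by 0.18 (interval -0.03 to 0.39), Nfkb2 by 0.18 (-0.10 to 0.46) and Birc3 by 0.32 (-0.50 to 1.14). Intervals were narrowest for Nfkb1, from -0.13 to 0.20, and for Nfkbia they ran from -0.34 to 0.35. At 2 h, 4 differences were positive, with 0.14 for Bcl3, 0.07 for Birc3, 0.06 for Nfkb1 and 0.02 for Nfkb2. The other 4 were negative, with -0.15 for Zfp36, -0.06 for Rela and -0.02 for both Nfkbia and Nfkbiz, and no raw p was under 0.05. Without the steep arrays the 2 h values of the 7 members other than Zfp36 lay between -0.04 and 0.18. The change of the EPO effect between times was called for 0 of 8 members and 0% of genes. The other 7 lay between -0.02 for Nfkb1 and 0.25 for Birc3, and the largest was Nfkbiz at 0.59 ± 0.25 SE, the only one with a raw p under 0.05 (0.0346), with a limma adjusted p of 0.92.

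**Figure D4:**
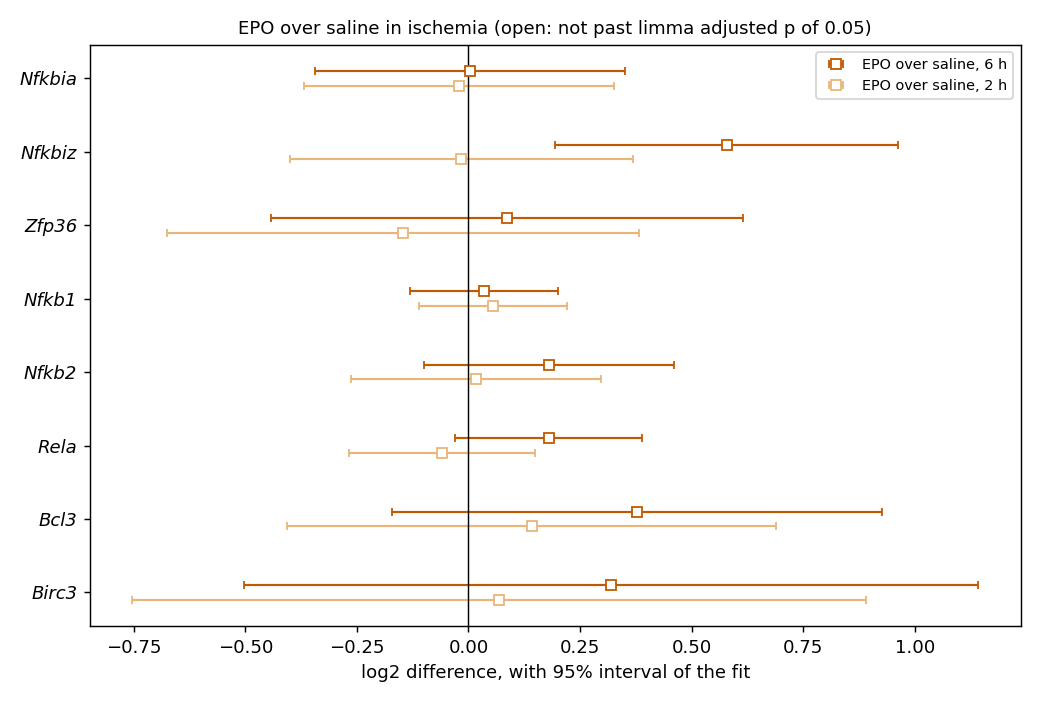
Log2 differences of MCAO with EPO over MCAO with saline for the 8 measured members at 6 h (dark) and 2 h (pale), with 95% intervals of the fit; none passed the threshold. All 6 h values lie at or right of 0, and only the interval of Nfkbiz at 6 h excludes 0.

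The rest of the pathway was read from 4 lists, also chosen with earlier results of these data known. Of 16 measured receptors and adaptors, 9 rose and 1 fell with saline over sham at 6 h, against 3 and 0 at 2 h, where 6.14% and 6.71% of all genes were called higher and lower at 6 h, and 1.22% and 0.349% at 2 h. Those with the smallest p at 6 h were Cd14, a co-receptor for lipopolysaccharide (1.73 ± 0.18 SE), the TNF receptor genes Tnfrsf1b (1.31 ± 0.15 SE) and Tnfrsf1a (0.87 ± 0.11 SE), and Tlr2 (1.05 ± 0.15 SE), all with limma adjusted p of at most 0.000736. At 2 h, Tnfrsf1b was already higher by 1.09 and Cd14 by 0.90. Irak1, a kinase of IL-1 and Toll-like receptor signalling, was the one that fell, by 0.25. Ltbr, a receptor of the non-canonical branch, was the only receptor or adaptor whose MCAO effect was called different between 6 h and 2 h, by 0.60 (adjusted p = 0.00629). With EPO over sham the counts at 6 h were again 9 and 1, led by Cd14 at 2.12, where 8.15% of all genes were called higher and 10.7% lower.

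Of 10 measured kinases, only Map3k8, which encodes TPL2 and is held by p105, was called, a share near that of all genes at 6 h (6.14% higher), at 0.41 ± 0.10 SE at 6 h and 0.57 ± 0.10 SE at 2 h (limma adjusted p = 0.0182 and 0.00981). The IkB kinase genes Chuk, Ikbkg and Ikbkb had 6 h differences of 0.07, 0.02 and -0.00, none called. Among 13 further subunits, inhibitors and RNA decay factors, 5 rose and 0 fell at 6 h, and 1 rose at 2 h. Of all genes, 6.14% rose and 6.71% fell at 6 h, and 1.22% rose at 2 h. Rel, the c-Rel subunit, differed by 1.59 ± 0.29 SE at 6 h (3.02-fold, adjusted p = 0.00361). Tnip2, a partner of the Tnfaip3 and Nfkb1 products, differed by 0.80 ± 0.08 SE, and Birc2, the neighbour and relative of Birc3, by 0.39 ± 0.09 SE. Zfp36l1, a relative of Zfp36, was higher by 0.80 ± 0.09 SE at 2 h (adjusted p = 0.000281) and by 0.44 ± 0.09 SE at 6 h. Nfkbie, which encodes another IkB, was not called with saline at 6 h (0.23, adjusted p = 0.276), while EPO over sham gave 0.40 (limma adjusted p = 0.0384); EPO over saline for it was 0.17, not called.

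Of 24 measured NF-kB target genes, 18 rose and 0 fell at 6 h and 8 rose at 2 h, where 6.14% of all genes rose at 6 h and 1.22% at 2 h. The 18 include Cxcl2 and Ccl20, for which no 6 h sham array was well above background. Likewise the 8 include Cxcl1 and Cxcl2, for which no 2 h sham array was. Cxcl2 passed the brightness filter through the MCAO groups alone. The list's median log2 difference was 1.29 at 6 h and 0.05 at 2 h, against -0.09 and -0.05 over all genes. The adhesion gene Icam1 was higher by 2.08 ± 0.15 SE at 6 h, and the chemokine gene Ccl2 by 4.93 ± 0.36 SE, with limma adjusted p of 2.39e-06 and 2.99e-06. Cxcl2, a neutrophil chemokine, was not well above background in sham, and was at least 53.0-fold higher with saline at 6 h and at least 13.2-fold higher at 2 h. Cxcl1 was higher by 5.12 ± 0.33 SE at 6 h, and at least 19.5-fold higher at 2 h. For 9 of the 24 the MCAO effect was called different between 6 h and 2 h, where 1.93% of all genes were, among them Gadd45b (1.73 ± 0.26 SE, adjusted p = 0.00544) and Csf1 (0.76 ± 0.12 SE, adjusted p = 0.00488). EPO over saline gave 0 calls in any of the 4 lists at either time.

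**Figure D5:**
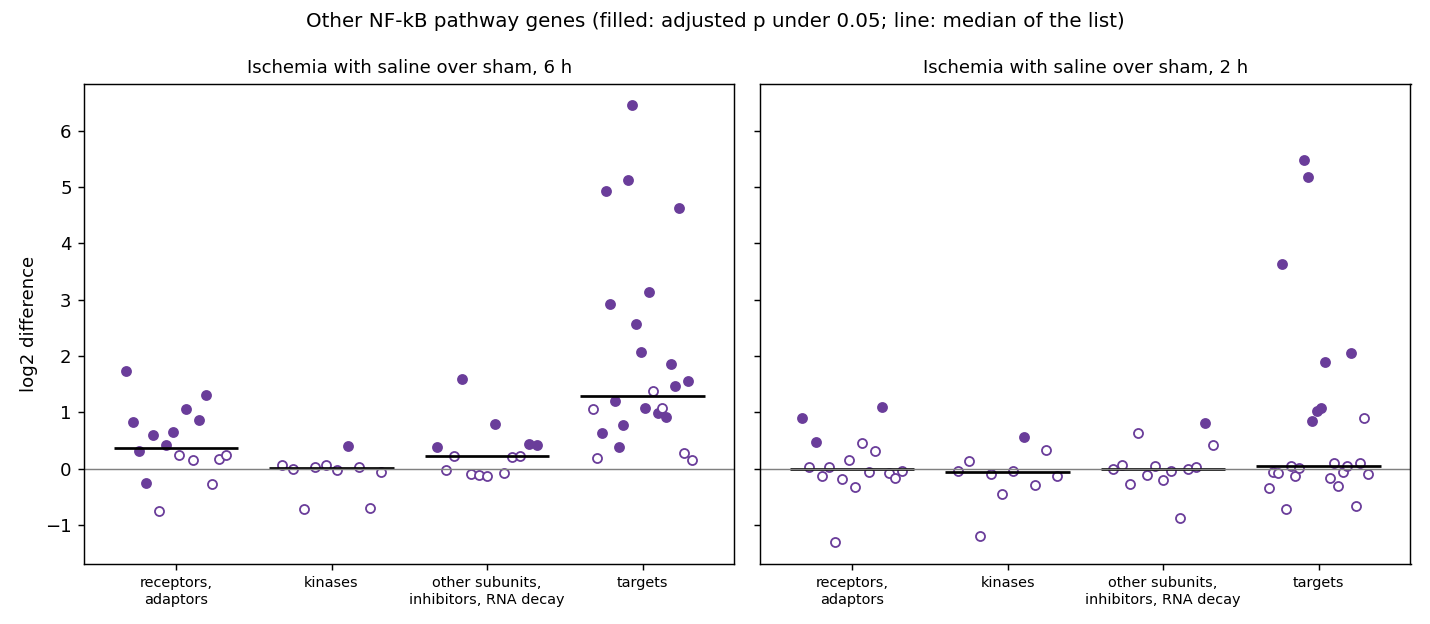
Log2 differences of MCAO with saline over sham for other NF-kB pathway genes, by list, at 6 h (left) and 2 h (right); points are genes, filled where the limma adjusted p was under 0.05, and lines are list medians. At 6 h the filled target genes all lie above 0, and 1 of 10 kinases is filled at either time. Values of Cxcl2, of Ccl20 at 6 h and of Cxcl1 at 2 h are measured against a sham signal not well above background.

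Markers of some cell types moved at 6 h as well, and their part in the members' differences was not tested. With saline over sham, 0 of 6 astrocyte, 0 of 5 oligodendrocyte and 0 of 3 measured lymphocyte markers were called. With EPO over sham, 1 of these, the astrocyte marker Gfap, rose. Over all genes at 6 h, 6.14% were called higher and 6.71% lower with saline, and 8.15% and 10.7% with EPO. Of 4 measured neutrophil markers 2 rose with saline over sham, and their summed level relative to the 75th percentile was 0.63 to 1.51 with EPO and 0.94 to 1.05 with saline, against 0.26 to 0.45 in sham. For the microglia and macrophage list of 8, 2 rose and 2 fell, with sums of 11.3 to 12.6 with EPO, 11.4 to 12.8 with saline and 11.7 to 12.9 in sham, which overlap. Cd14 is on that list as well as among the receptors. Endothelial markers fell for 4 of 6 and neuronal markers for 3 of 6, the neuronal sum being 77.3 to 89.1 with EPO, 85.0 to 87.0 with saline and 99.3 to 104.8 in sham. Sums add unlogged levels, so probes of high signal weigh most in them. In the neuronal sum these are Snap25 and Rbfox3, with mean log2 levels of 6.15 and 4.40 in 6 h sham. Gad1, at 1.80 in sham and 1.81 with saline, did not fall. Striatal markers, which would come with tissue below the cortex, rose for 2 of 6 with saline and 5 of 6 with EPO, with sums of 24.6 to 31.4 with EPO, 21.7 to 26.9 with saline and 12.5 to 18.1 in sham. The oligodendrocyte sums were 246.5 to 258.6 with EPO, 236.9 to 254.9 with saline and 214.9 to 237.3 in sham. At 2 h, for saline over sham, 2 of 8 microglia and macrophage markers rose, where 1.22% of all genes did. They were Cd14, by 0.90, and Cd68, by 0.39 (limma adjusted p = 0.024 and 0.0437). No neutrophil, endothelial, neuronal or striatal marker was called at that time. The striatal sums at 2 h were 17.8 to 23.3 with EPO, 15.9 to 23.2 with saline and 9.7 to 17.3 in sham. Oligodendrocyte sums at 2 h were 236.9 to 270.7 with EPO, 253.1 to 266.2 with saline and 228.2 to 234.2 in sham, with no marker called.

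The genes most like Nfkb2 across the 18 arrays, out of 13136 compared, were Irf1 (Pearson r = 0.98), Ripk3 (0.97), Rhoc (0.97), Ccl7 (0.97) and Myc (0.96). Zfp36 was most like Hspa1a (0.96), Ppp1r15a (0.95), Atf3 (0.95), Plat (0.94) and Gdf15 (0.94), with the Zfp36 probe well above background on 11 of the 18 arrays. Nfkbia was most like Tmem252 (0.93), Nab2 (0.89), Tcim (0.87), Micall2 (0.86) and Rgs1 (0.85). The arrays share groups and scaling, so these values describe likeness of pattern over 6 groups.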

How the data were processed

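Per the file headers, the authors scanned 18 Agilent single-colour arrays and extracted them with Feature Extraction 9.1.1.1, which background-subtracts and writes the deposited processed signal intensity per spot. The deposited log2 value table holds the same signals on the log2 scale (largest difference 5.33e-14) and served as an alternative. From the intensities, log2 was taken, spots marked as outliers were left out, the 75th percentile over all non-control spots of the array was subtracted, and spots of a probe were averaged. Probes well above background on all 3 arrays of at least 1 group were kept. Limma 3.58.1 (R 4.3.3) fitted 1 model with 6 group means and 12 residual degrees of freedom, with Benjamini-Hochberg adjustment over all 28634 probes and a threshold of 0.05. A gene is its tested probe of highest mean signal. Every measured member is tested in every comparison. From each pathway list, up to 4 genes of smallest p are named per comparison, and other list genes were chosen after their values were seen. The 5 genes most correlated with each of Nfkbia, Zfp36 and Nfkb2 are named too. Names follow RefSeq. The members and lists were chosen with earlier results of these data known. The fit was tested on simulated data. Alternatives covered scaling, background, filters, slide, spike-in slope, replicate block and leaving out arrays. Correlations of same-numbered arrays were all positive in 1 comparison only, EPO over saline at 2 h, at 0.89, 0.65 and 0.64. Even there, not every array was most like the array of its own number, so pairing by replicate number is not shown. The number of arrays limits the precision.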

Additional observations from a re-analysis of the deposited data

Results flagged for a closer look

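The effect of MCAO with saline over sham differed between 6 h and 2 h for 2 members, by the interaction term of the limma model. For Nfkbia the difference of the log2 effects, 6 h minus 2 h, was 1.09 (adjusted p = 0.0324), with saline over sham at 1.12 at 6 h and 0.02 at 2 h. The saline means were 1.78 at 6 h and 1.63 at 2 h, and the sham means 0.66 and 1.61. For Bcl3 it was 1.68 (adjusted p = 0.0374), with saline over sham at 1.82 at 6 h and 0.15 at 2 h, saline means of 1.85 at 6 h and -0.22 at 2 h, and sham means of 0.03 and -0.37. Each call held in 21 of 39 alternatives, with adjusted p of 0.01 to 0.968 for Nfkbia and 0.0159 to 0.614 for Bcl3, and neither changed sign. The Nfkbia call was lost without sham 2 h replicate 1 or 3, saline 2 h replicate 2 or 3, EPO 2 h replicate 2, saline 6 h replicate 2 or 3, or sham 6 h replicate 1 or 3. The Bcl3 call was lost without sham 2 h replicate 1 or 2, any saline 2 h or saline 6 h array, EPO 2 h replicate 2, EPO 6 h replicate 2, or sham 6 h replicate 1 or 3. Across the 18 such fits Nfkbia stayed between 0.96 and 1.24, and Bcl3 between 1.37 and 1.90. Without the 6 steep arrays the values were 1.02 for Nfkbia and 1.74 for Bcl3, with limma adjusted p of 0.36 and 0.614.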

How the results depend on the processing

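Of 2790 member values under 21 settings and 18 fits leaving out 1 array, 2656 kept their side of the threshold, 94 lost the call and 39 gained it. Only 1 called value changed sign: Rela for saline over sham at 6 h, -0.18 as the mean over its probes. Among the 2656, 98 values changed direction while called in neither fit. EPO over saline and its change with time gave 0 calls in every fit. The causes below were not tested.

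Counts of members called, out of 8, moved as follows. Saline over sham at 6 h (8) fell to 2 without the steep arrays and 5 with only the groups compared, and was 7 to 8 with 1 array left out. EPO over sham at 6 h (8) was 5 after median scaling and 8 with any 1 array left out. Saline over sham at 2 h (1) was 3 with slide as a random block, 2 without the 2 arrays whose titles fall in another number range (EPO 2 h and sham 6 h, replicate 1 of each) and with the percentile over probes (chosen after seeing the data), and 0 with normexp, with only the groups compared and with probes above background on all arrays, which drops Zfp36 and Nfkbiz. EPO over sham at 2 h (1) was 3 with the percentile over probes, 2 with slide as a random block, the slope class as a block, quantile scaling, outlier spots kept, trend and robust variances or the mean over probes, and 0 with only the groups compared. With 1 array left out, both 2 h counts were 1 to 2: 2 without sham 2 h replicate 1 or saline 6 h replicate 2 or 3 in both, without EPO 2 h replicate 1 for saline, and without EPO 2 h replicate 3 for EPO. Sham at 6 h over 2 h (1, Nfkbia) was 2 with normexp and 0 with slide as a block, with the spike-in slope fitted as a term, either set of arrays left out, the unscaled value table, median scaling, only the groups compared, a threshold of 0.01 or the mean over probes, and 0 to 1 with 1 array left out, being 0 without sham 2 h replicate 1 or 3 or sham 6 h replicate 1 or 3. The change of the MCAO effect with time (2) was 5 with normexp, 4 with slide as a random block or the slope as a class or a term, 1 with the unscaled value table or the mean over probes, 0 with either set of arrays left out, median scaling, no brightness filter, only the groups compared or a threshold of 0.01, and 0 to 3 with 1 array left out.

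With the replicate number as a block, EPO over sham at 2 h gave 2 and the change of the MCAO effect 1, and no other count changed by over 1.5 times, including 0 for EPO over saline at 2 h.

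Scaling moved the balance of all probes for saline over sham at 6 h, 1372 higher and 1792 lower, to 1433 and 1115 with quantile, 849 and 416 with the unscaled value table, 358 and 27 with the median, and 1578 and 1204 with the percentile over probes. Median scaling put the median of all probes at 0.18 for saline over sham at 2 h, where the reported scaling gave -0.07. Zfp36, at background in sham, has only a bound against sham.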
